A study of Rattus norvegicus with 2 samples.

Results

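The single probes with a high 8-oxoG signal on both arrays were 2556 of the 173675 probes on chromosomes 1 to 20 that lay well above background in both channels, which is 1.47%, and of 235872 probes kept in all. They were chosen by the measured signal itself: the 8-oxoG level, log2(IP/input) with the probe median of each array set to 0, was above 1.5 on both arrays. On a linear scale the immunoprecipitated (IP) signal of such a probe, relative to input, is then at least 2.83 times that of the median probe. Their levels are therefore given as a description and not as a test. The 173675 probes that could have been chosen are called eligible probes. A high level is a high ratio and can come with bright IP, dim input or both. The median input of the high probes was 0.279 times that of the eligible probes, and the median IP 1.13 times (mean ratio of 2 arrays).

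The data consist of 2 arrays, 1 for each of 2 male Wistar rats (written Wister in the labels) aged 5 weeks, and both samples are normal kidney, which is the one group of the study. Genomic DNA was cut with the restriction enzyme BmgT120I and precipitated with N45.1, a monoclonal antibody against 8-oxoG. IP DNA was labelled with Cy5 and input DNA without IP with Cy3, and 800 ng of each was hybridised to Agilent rat CGH arrays, whose probes are mostly 60-mers. No control group and no dye swap exist, so an effect of the dye cannot be told apart from a difference between IP and input, and the number of arrays limits the precision of every value. Names of genes were not used here, since the files give positions on rn4 without genes, so neither the label of the tissue nor the genes at the probes were examined.

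8-oxoG (8-oxo-7,8-dihydroguanine) is guanine oxidised by reactive oxygen species. It pairs with adenine as well as with cytosine, so that an unrepaired residue can give a G:C to T:A transversion at replication. The glycosylase OGG1 removes it from pairs with cytosine, and MUTYH removes the adenine placed opposite to it. The kidney consumes much oxygen, and its DNA carries 8-oxoG also without any treatment. Antibody enrichment reads the 8-oxoG content of whole restriction fragments, and a single probe reads the fragment that hybridises to it.

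Most of the high probes lay close to the limit of the rule, and a small number lay far above it. On replicate 1 their levels ran from 1.5 to 3.97 with a median of 1.84, and on replicate 2 from 1.5 to 6.08 with a median of 1.93. The mean level over both arrays had a median of 1.92 (SD between the medians of the arrays 0.07, n = 2). Of the 2556 probes, 1542 (60.3%) had a mean level of at most 2, 856 (33.5%) lay between 2 and 2.5, 146 (5.71%) between 2.5 and 3, and 12 above 3. Levels above 2 on both arrays were found for 429 probes, and levels above 3 on both arrays for 5. Replicate 2 was the higher one for 1512 of them (59.2%), compared with 50.3% of all eligible probes. The arrays differed by less than 0.5 for 70.5% of the high probes and for 38.6% of all eligible probes. The rule asks for a level above 1.5 on both arrays, so this share is no measure of agreement between the rats.

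**Figure D1:**
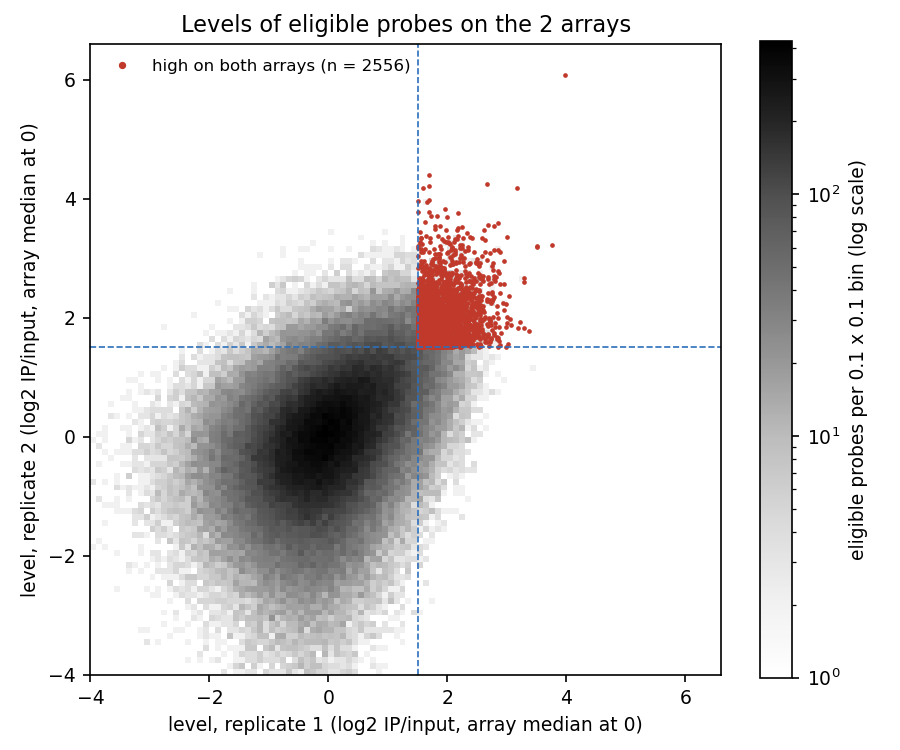
Level on replicate 1 (x axis) against level on replicate 2 (y axis), both as log2(IP/input) with the array median at 0, for eligible probes (grey, number per bin on a log scale) and for the 2556 high probes (red points). Dashed lines mark the limit of 1.5, and 716 eligible probes lie outside the plotted range. A single probe at 3.97 and 6.08 stands apart from the red cloud.

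The limit cut through a continuous distribution of levels. The last probes inside were A_86_P05063614 on chromosome 13 (1.85 on replicate 1 and 1.50001 on replicate 2), A_86_P04180590 on chromosome 9 (1.50017 and 3.17) and A_86_P03305847 on chromosome 7 (1.57 and 1.50028). The first probes outside were A_86_P01332098 on chromosome 2 (1.49994 and 1.64), A_86_P06410460 on chromosome 17 (1.49975 and 1.73) and A_86_P03056072 on chromosome 6 (1.49974 and 2.28). The number of high probes also depended on the processing. With normexp background correction of raw median signals in place of the processed signals, 14 probes passed both limits. This setting also added an offset of 50 to both channels and left out dye normalization. The parts were not tested apart.

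How far a high level on one rat was found again on the other can be read by choosing on the level of 1 array, although an eligible probe also had to be well above background on the other. Of the 7827 eligible probes above 1.5 on replicate 1, 2556 were also above 1.5 on replicate 2, which is 32.7% (95% exact binomial interval 31.6 to 33.7), compared with 6.37% of all eligible probes. These 7827 probes had a median level of 1.77 on replicate 1 and of 1.11 on replicate 2, where 85.8% of them were above 0 and the median eligible probe was at 0.01. In the other direction, 11058 probes were above 1.5 on replicate 2, and 23.1% of them (22.3 to 23.9) were above 1.5 on replicate 1, compared with 4.51% of all eligible probes. The eligible probes set beside these shares were not matched for input brightness, whose part in the shares was not tested. The intervals here and below are Clopper-Pearson intervals, treat probes as independent and cover counting error only.

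The share found again rose with the level on the choosing array. Probes with a level of 1.5 to 2 on replicate 1 exceeded 1.5 on replicate 2 in 29.2% of 5835 cases, those of 2 to 2.5 in 40.4% of 1682, those of 2.5 to 3 in 55.7% of 280, and those above 3 in 17 of 30 cases. Chosen on replicate 2, the corresponding shares were 19.5% of 7295, 28.2% of 2771, 34.2% of 725 and 38.6% of 267. Even the highest probes of one array were thus at or below 1.5 on the other in 13 of 30 and 164 of 267 cases.

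The high probes differed from the other probes more in input than in IP. Their median processed input intensity was 38.4 on replicate 1 and 28.4 on replicate 2, while that of all eligible probes was 132 and 107. Their median IP intensity was 146 and 122, compared with 131 and 106.2 for all eligible probes. The ratio of the medians, high over eligible, was 0.279 ± 0.019 (SD, n = 2 arrays) for input and 1.13 ± 0.017 for IP. Input below the median of the eligible probes was measured for 95.1% of the high probes on replicate 1 and for 94.9% on replicate 2, whereas IP was below its own median for 44.3% and 43.1%. Both intensities enter the level, so these values describe the rule and are no test. No spot of a high probe was saturated.

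The share of eligible probes that were high fell at each step from dim to bright input. The eligible probes were split into 10 equal classes by input intensity (mean of both arrays on the log scale). In the dimmest class (intensity 9.31 to 27.5), 1041 of 17368 probes were high, which is 5.99%. In the next class 3.70% were high, in the fifth 0.743%, and in the brightest 5 probes or 0.0288%. The median level of all eligible probes ran in the same order, from 0.65 in the dimmest class to -0.53 in the brightest. Input is the denominator of the level, so both trends along input are a description and not a test. By IP the shares varied less, between 1.33% and 2.05% over the 8 brighter classes, with 117 high probes in the class below these and 1 in the dimmest. IP is the numerator of the level, and input had to be well above background, so dim IP leaves little room for a high level. The shares by IP are therefore a description too. The 3 dimmest classes of input held 2086 of the high probes, and the part of low input in the height of their level was not tested.

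**Figure D2:**
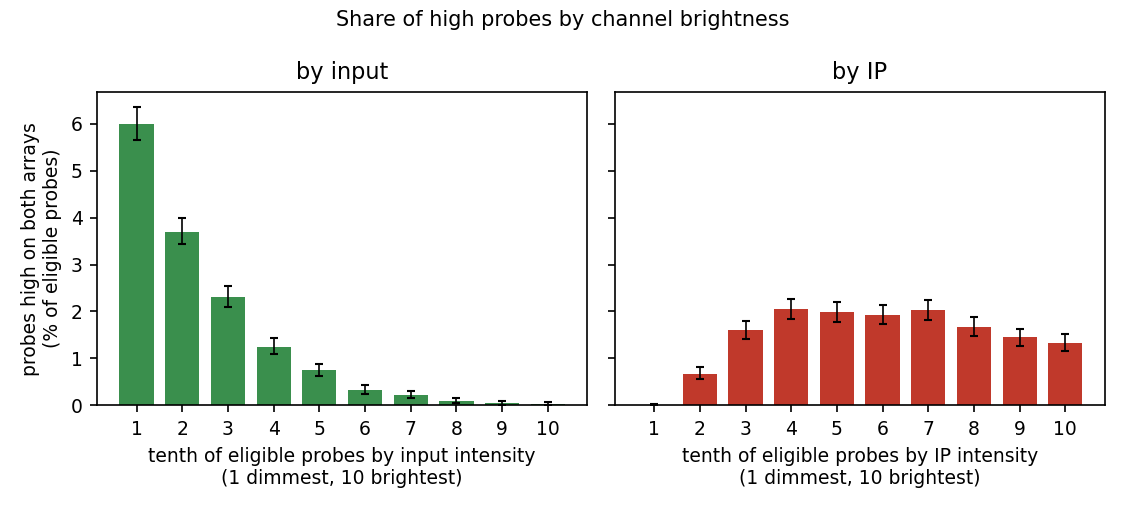
Share of eligible probes that were high on both arrays (y axis, percent), by 10 equal classes of input intensity (left) and of IP intensity (right), from dimmest to brightest. Bars are shares over both arrays and error bars 95% exact binomial intervals. The share falls from 5.99% to 0.0288% along input and stays between 1.33% and 2.05% over the 8 brighter classes of IP.

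A small number of the high probes were bright in input too. On both arrays 117 high probes had input at or above the eligible median, which is 0.139% of the 84248 eligible probes of that kind, compared with 2.87% of the 84247 probes with input below the median on both arrays. The median mean level of these 117 probes was 1.80. One of them was A_86_P00087818 (chr1:33183812-33183871), which carries 3 spots on each array. Its spots were at 2.31, 2.17 and 2.11 on replicate 1 and at 2.00, 2.00 and 1.79 on replicate 2, with a mean IP intensity of 2750 and 1860 and a mean input intensity of 595 and 466.

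Probes placed at more than one position of the slide show the spread within an array. Only 6 high probes (0.235%, eligible 0.401%) were spotted more than once. A_86_P02895718 (chr6:26502232-26502291) was at 2.08 and 1.94 on replicate 1 and at 2.87 and 2.49 on replicate 2. A_86_P01204247 (chr2:196133847-196133903) had 3 spots between 1.499 and 1.63 on replicate 1 and between 2.30 and 2.31 on replicate 2, so its arrays differed by more than its spots. For A_86_P04417241 (chr10:35158243-35158302) the spots lay between 1.58 and 1.96 on replicate 1 and between 1.69 and 1.78 on replicate 2. A_86_P00434490 (chr1:169901709-169901767) was at 2.15 and 1.64 on replicate 1 and at 1.55 and 1.71 on replicate 2. With the exception of the lowest spot of A_86_P01204247, just under the limit, every spot of these 5 probes was above 1.5 on both arrays. The rule used the mean of these same spots, so this is a description and not a test.

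The highest probe was A_86_P01393968 (chr3:4865840-4865890, 51 bases long), with a level of 3.97 on replicate 1 and 6.08 on replicate 2. Its input was dim on both arrays (15.9 and 12.8), and its IP intensity was 251 and 904. Its nearest neighbours, 3470 bases before and 4517 bases after it, were below 0 on both arrays (-0.38 and -0.57 before, -0.56 and -0.48 after). The mean of the 22 other probes within 50 kb was 0.08 and 0.01. The high signal of this probe was thus not seen at the next probes on either side.

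The other 9 of the 10 highest probes lay on 7 more chromosomes. They were A_86_P06733196 (chr19:24854369-24854428, levels 3.17 and 4.17), A_86_P03408694 (chr7:67831876-67831933, 3.76 and 3.23) and A_86_P04993348 (chr12:36835800-36835859, 2.66 and 4.24). On chromosome 4 lay A_86_P01869165 (chr4:1811246-1811305, 3.51 and 3.21), A_86_P02130335 (chr4:100780211-100780270, 2.85 and 3.59) and A_86_P02049065 (chr4:68087023-68087082, 2.78 and 3.54). The remaining ones were A_86_P03152464 (chr6:120372047-120372106, 3.51 and 3.19), A_86_P03959659 (chr8:119086696-119086755, 2.996 and 3.36) and A_86_P00791423 (chr2:33046478-33046537, 2.68 and 3.55). Input of these 10 probes ran from 11.2 to 79.4 on replicate 1 and from 9.25 to 61.9 on replicate 2. The brightest in IP on replicate 1 was A_86_P03152464, at 913 and 589, against an input of 79.4 and 61.9.

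Next to these 10 probes the profile showed no common height. Of the 20 probes directly before or after them, 7 were above 0 on both arrays, 6 were below 0 on both, and none was above 1.5 on both. Another high probe lay within 50 kb of 2 of the 10, A_86_P03408694 and A_86_P04993348. The mean of the other probes within 50 kb was above 0 for 5 of the 10 on replicate 1 and for 5 on replicate 2. None of the 10 flanks was called different from 0 (limma, Benjamini-Hochberg adjusted p of 0.205 or more). With 2 arrays this does not show that they lay at 0.

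Whether the surroundings of the high probes were high as well was read from their flanks. The flank level of a probe was taken as the mean level of all other probes within 50 kb, where at least 3 existed, other high probes included, and each flank of every probe on chromosomes 1 to 20 was tested against 0 by limma over both arrays. Of the 2556 high probes 2474 had such a flank. Their flank level had a median of 0.25 on replicate 1 and 0.11 on replicate 2, compared with -0.08 and -0.12 around all eligible probes. The difference of the medians, high minus eligible, was 0.28 ± 0.08 (SD, n = 2 arrays), with the same sign on both arrays; with 2 arrays an exact permutation test cannot go below p = 0.5. The high probes themselves had a median level of 1.92 on the same log2 scale.

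The flanks called above 0 were 138 of the 2474 (5.58%) around high probes, while 2.00% of all 215526 flanks tested were called above 0 (limma, adjusted p under 0.05). Flanks below 0 were 11 (0.445%), compared with 1.09% of all. The 138 flanks lay on 17 chromosomes, had levels between 0.82 and 1.92 with a median of 1.00, and 59 of them held another high probe. When all other high probes were left out of the flanks, 47 of 2436 (1.93%) were called above 0, compared with 0.806% of all flanks, and the medians were 0.21 and 0.07. The flank was above 0 on both arrays for 1217 high probes (49.2%, eligible 25.5%) and below 0 on both for 505 (20.4%, eligible 44.2%). With the normexp setting, which also left out dye normalization, the median flank level turned to -0.0054 (eligible -0.06). There, 26 flanks of high probes (1.05%, all flanks 0.481%) were called above 0 and 114 (4.61%, all flanks 6.75%) below.

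The flank level did not increase with the level of the high probe. Probes with a mean level up to 2 had flank medians of 0.25 on replicate 1 and 0.10 on replicate 2, those between 2 and 2.5 had 0.26 and 0.12, and the 156 tested above 2.5 had 0.23 and 0.09. In the same order the median input fell from 40.4 to 36.8 and 27.9 on replicate 1 and from 30.1 to 26.9 and 19.97 on replicate 2. The median IP intensity was 141, 154 and 149 on replicate 1 and 110, 139 and 173 on replicate 2.

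High probes lay in stretches with fewer probes, and the flank level moved with the number of probes too. The median number of other probes within 50 kb was 8 for high probes and 12 for eligible probes, and the median distance to the nearest probe was 9623 and 6058 bases. Of eligible probes with 3 to 7 others within 50 kb 2.22% were high, with 8 to 11 others 1.60%, with 12 to 15 others 1.03% and with 16 or more 0.879%. Within each of these classes the flanks of the high probes were above those of the eligible probes on both arrays. With 3 to 7 others they were at 0.33 and 0.17, against 0.08 and -0.0048 for eligible probes, and with 16 or more at 0.14 and 0.06, against -0.17 and -0.17.

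Input brightness was also set against the flanks. In the dimmest of 4 equal classes of eligible probes by input, 1865 high probes had flanks at 0.26 and 0.11 (eligible -0.0011 and -0.06), and in the next class 494 had 0.24 and 0.13 (eligible -0.07 and -0.11). In the class after that, 99 high probes had 0.11 on replicate 1 and -0.11 on replicate 2 (eligible -0.11 and -0.14). For the 109 tested high probes with input at or above the eligible median on both arrays, the flanks were at 0.10 and -0.07 (eligible -0.12 and -0.14), and 2 of them (1.83%, all flanks 2.00%) were called above 0. The part of input brightness in the flank result was not tested further.

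By distance, the mean level around high probes was followed from 1 kb outwards, with other high probes left out, since a single pair lay closer than 1 kb (0.81 and 0.69). From 1 to 3 kb it was 0.37 on replicate 1 and 0.47 on replicate 2 over 121 pairs of probes, against -0.14 and -0.16 around eligible probes. At 3 to 5 kb it was 0.13 and 0.03, and from 5 kb to 500 kb it stayed between 0.13 and 0.17 on replicate 1 and between 0.0079 and 0.03 on replicate 2. Around eligible probes the values over 3 to 500 kb ran from -0.13 to -0.08 and from -0.18 to -0.14, so the high probes' surroundings were above them at every distance plotted. The 1794 probes that were low on both arrays (level under -1.5) had surroundings below those of the eligible probes at each distance, between -0.28 and -0.15.

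**Figure D3:**
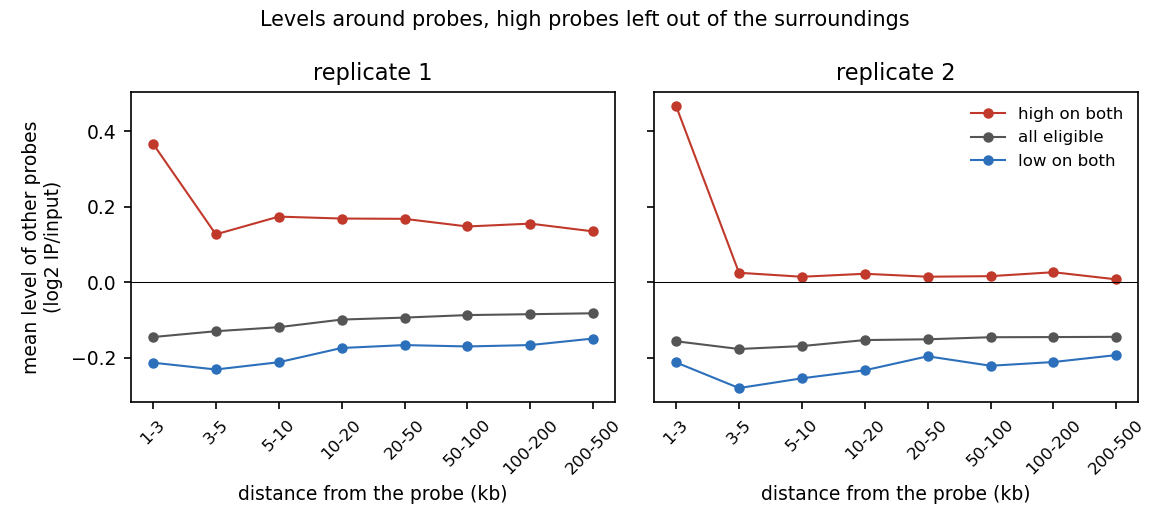
Mean level of other probes (y axis, log2 IP/input) by distance in kb (x axis) from high probes (red), all eligible probes (grey) and low probes (blue), with high probes left out of the surroundings, for replicate 1 (left) and replicate 2 (right). Points are means over pairs of probes without error bars, and the first red point rests on 121 pairs. Red lies above grey, and blue below it, at each distance on both arrays.

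The probes directly next to a high probe were mostly not high. Of the 5112 next probes 10.2% were above 1.5 on replicate 1 and 10.7% on replicate 2, compared with 5.197% and 7.34% next to eligible probes. Their median level was 0.26 and 0.16. Both next probes were above 0 on both arrays for 472 high probes (18.5%, eligible 10.8%) and below 0 on both arrays for 146 (5.71%, eligible 10.98%). A next probe was itself high on both arrays for 121 high probes (4.73%, eligible 2.20%), and for 1 probe both were.

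Whole 1 Mb fragments were compared as well. With the high probe itself left out, the rest of its fragment had a median level of 0.26 on replicate 1 and 0.09 on replicate 2, compared with -0.10 and -0.14 for eligible probes, in fragments with at least 20 other probes. The rest was above 0 on both arrays for 58.8% of 2551 high probes and 24.9% of eligible probes. It was below 0 on both for 24.4% and 59.3%. High probes were spread over 1375 of the 2570 fragments (53.5%); 49 fragments held 5 or more, and the highest number in a fragment was 10.

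Most high probes had no other high probe near them. Only probes well above background could count as high, while 3862 probes passed the limits without that filter. Within 50 kb, 415 of 2556 (16.2%) had another one, compared with 9.25% of eligible probes that had a high probe within 50 kb. At 10 kb the shares were 2.19% and 1.32%, and at 200 kb 46.4% and 29.2%. Linked over gaps of up to 50 kb, the high probes formed 2141 singles, 169 pairs, 20 groups of 3, 3 groups of 4 and 1 group of 5.

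The group of 5 lay on chromosome 6 (chr6:5444552-5542462, 97.9 kb). Its high probes were at 1.57 to 2.69 on replicate 1 and 1.60 to 2.64 on replicate 2, and the 5 other probes between them averaged 0.07 and 0.10. Among these others, A_86_P02839110 was very dim on both arrays (IP 2.05 and 1.62, input 1.91 and 1.59). A_86_P02839102 was very dim on replicate 2 (IP 1.98, input 1.61). Such dim levels carry little information, although they enter the averages. Brighter probes that were not high also lay in between, such as A_86_P02839162 at 0.83 and 1.34 (IP 144 and 172). The strongest of the high probes, A_86_P02839251, was at 2.69 and 2.64, and the probe just before it, A_86_P02839241, at 0.03 and -1.46.

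Among the groups of 4, that on chromosome 8 (chr8:9417020-9525361) ran from 1.52 to 2.23 on replicate 1 and from 1.80 to 3.77 on replicate 2, and its 8 other probes averaged 0.78 and 0.63. On chromosome 5 (chr5:85544079-85603496) the 4 high probes averaged 1.99 and 2.18 and the 4 others 0.22 and 0.30. The next probe after this group, A_86_P02581384, was at 2.71 and 2.51 but was not well above background, so it was not eligible. The group on chromosome 1 (chr1:161432362-161482259) averaged 1.81 and 1.62, with 8 others at 0.72 and 0.04. Among these others was A_86_P00412799, at 2.08 and 1.75, which was left out by the background filter and not by its level. Near the start of chromosome 20 (chr20:165670-188865), 3 high probes within 23.2 kb averaged 2.22 and 2.49, and the 5 others 0.31 and 0.32. In each of the 5 groups the probes in between averaged above 0 on both arrays and below 1. These averages were taken over all other probes, dim ones included.

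**Figure D4:**
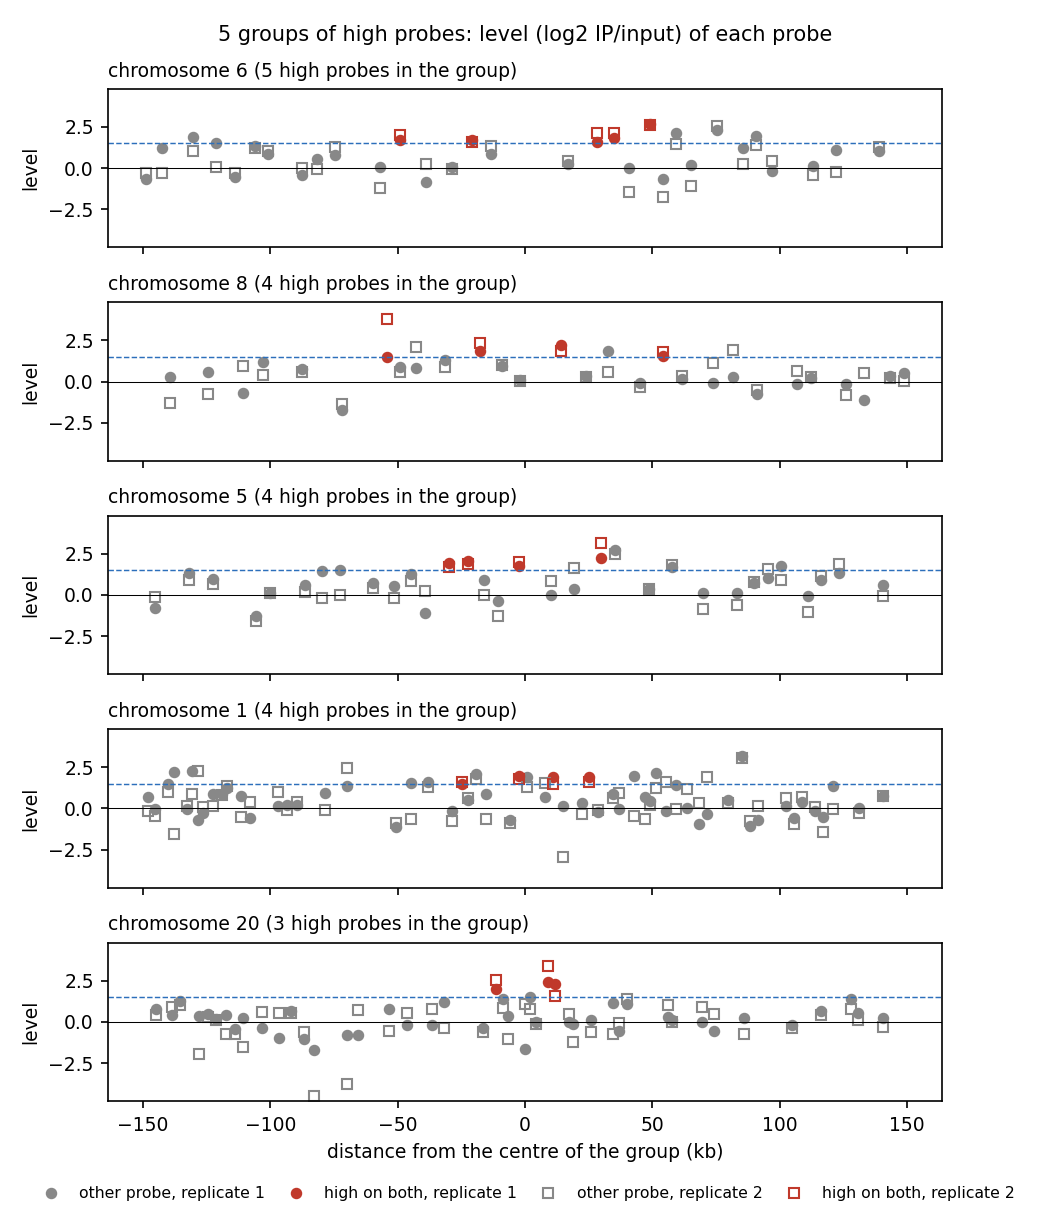
Level (y axis, log2 IP/input) of each probe within 150 kb of the centre of the 5 groups with the most high probes, by distance in kb (x axis); filled circles are replicate 1, open squares replicate 2, red high probes and grey other probes. The dashed line marks 1.5. In each panel grey probes, many of them under the dashed line, lie between the first and the last red probe. Grey includes probes that were not well above background, some of them above 1.5 on both arrays.

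The share of eligible probes that were high differed between the chromosomes. It was highest on chromosome 2 with 307 of 14488 (2.12%, 95% interval 1.89 to 2.37), followed by chromosome 13 (2.07%, 1.76 to 2.42) and chromosome 11 (2.00%, 1.66 to 2.39), and these intervals overlap each other. It was lowest on chromosome 12 with 16 of 3652 (0.438%, 0.251 to 0.711) and chromosome 10 with 55 of 9511 (0.578%, 0.436 to 0.752), whose intervals overlap as well and lie below those of all other chromosomes. The other chromosomes lay between 1.09% on chromosome 19 and 1.87% on chromosome 14. The level of the high probes themselves hardly differed, with medians from 1.88 on chromosome 4 to 1.97 on chromosome 17.

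The order of the chromosomes followed the level of their other probes. The mean level of eligible probes that were not high was 0.04 and -0.05 on chromosome 2, and 0.03 and -0.04 on chromosome 11. It was -0.25 and -0.13 on chromosome 12, and -0.20 and -0.15 on chromosome 10. Over the 20 chromosomes the share of high probes and this mean, averaged over both arrays, had a Pearson r of 0.95 and a Spearman rho of 0.92. This is a description, since all chromosomes were read on the same 2 arrays and the level of a chromosome shifts the number of its probes beyond a fixed limit. The share of low probes varied less, between 0.888% and 1.19%.

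**Figure D5:**
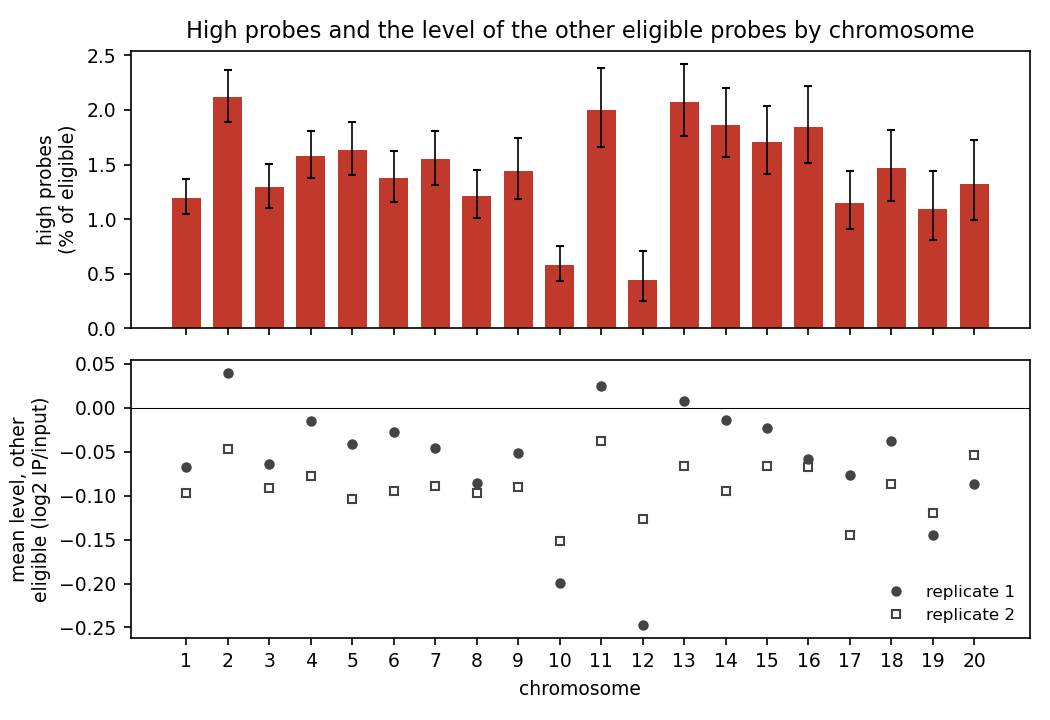
Upper panel: share of eligible probes that were high on both arrays (y axis, percent) for chromosomes 1 to 20, with 95% exact binomial intervals as error bars. Lower panel: mean level (y axis, log2 IP/input) of the remaining eligible probes on replicate 1 (filled) and replicate 2 (open). Chromosomes 10 and 12 are lowest in the upper panel, with 0.578% and 0.438%, and lie low in the lower one.

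The ends of the chromosomes held high probes about as often as eligible ones. The first 3 Mb of each chromosome held 81 high probes (3.17%, eligible 2.87%), and the last 3 Mb 78 (3.05%, eligible 3.48%). Short probes were rarer among them: 168 high probes (6.57%) were shorter than 60 bases, compared with 10.8% of eligible probes. Of eligible probes with 45 to 49 bases 10 of 1476 (0.678%, 95% interval 0.325 to 1.24) were high, and of those with 60 bases 2388 of 154958 (1.54%, 1.48 to 1.60). Those of 45 to 49 bases had a higher median level than the 60-mers (0.25 and 0.36 against -0.01 and -0.0014) and a brighter input (169 and 132 against 130 and 105.9).

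Position on the slide was examined as a technical measure. The spots directly around a high probe, which lie elsewhere in the genome, had a median mean level of 0.01 on replicate 1 and -0.06 on replicate 2, and the spots around eligible probes -0.0055 and -0.08. The difference, high minus eligible, was 0.0155 on replicate 1 and 0.0124 on replicate 2, and with rows and columns up to 2 away it was 0.0319 and 0.0255. It was above 0 on both arrays and small beside the level of the high probes, and its part in their level was not tested.

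The probes low on both arrays, with a level under -1.5, give a comparison in the opposite direction. They were 1794 (1.03% of eligible probes), and their median level was -1.92 on replicate 1 and -2.08 on replicate 2. Their median input was 240 and 203 and their median IP 55.3 and 38.8, so that they were bright in input and dim in IP. Relative to the eligible medians this was 1.86 ± 0.052 times for input and 0.394 ± 0.040 times for IP (SD, n = 2 arrays), while for the high probes the ratio was 1.13 in IP. Their flanks had medians of -0.17 and -0.18, below those of eligible probes (-0.08 and -0.12).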

How the data were processed

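Genomic DNA from the kidneys of 2 rats was analysed, with 1 2-colour array each. The authors scanned the arrays and made the deposited intensity values with Agilent Feature Extraction 10.5.1.1, which subtracts background, removes spatial trends and normalizes the dyes by lowess; the header names an adapted CGH protocol. Lowess sets the channels equal along the intensity, so levels are relative within an array and show no absolute amount of 8-oxoG. The authors also deposited a table of log2 values, which is not centred. Positions are on rn4, as given in the files. From the processed intensities log2(IP/input) was calculated per spot, 305 spots with outlier flags were left out, spots of a probe were averaged, and each array was centred on its probe median, with no loess or quantile step. Flanks were fitted with limma 3.58.1 in R 4.3.3 (intercept, lmFit and eBayes, two-sided, adjusted over all flanks), which was tested on simulated data; 1 residual degree of freedom exists per flank, and the prior adds 8.74. Neighbouring flanks share probes, so calls are not independent. Other steps used Python 3.11.15, numpy 2.4.6, pandas 2.3.3, scipy 1.17.1 and matplotlib 3.10.9.

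The members, lists and tests were chosen with earlier results of these data known. Named probes are the 10 with the highest mean level, the 3 just inside and the 3 just outside the limit, the 5 groups with the most members, and up to 5 members spotted more than once. The pair of probes named within the group on chromosome 6 was chosen after its values were seen. Results planned on genes and gene lists were not run, since no annotation or genome of rn4 was used here, and no sequences are printed for the same reason. The number of unused sample columns was 0.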

Additional observations from a re-analysis of the deposited data

How the results depend on the processing

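The number of high probes changed most with the normexp setting. This setting used raw median signals without dye normalization or removal of spatial trends, and added an offset of 50 to both channels. Background correction was therefore not its only change, and the parts were not tested apart. With normexp (offset 50, median signals) 14 probes passed, before dye normalization 5059, at limits of 1 and 2 9750 and 429, without the filter on background 3862, with bright input alone 117 (here and below, input at or above the eligible median on both arrays, a setting chosen after seeing the data), and with 1 array alone 7827 to 11058. It stayed within 1.5 times with the table of the authors (2834) and with outlier spots kept (2557). The median level of the 2556 probes was 0.24 with normexp, 2.13 before dye normalization, and 1.84 to 1.93 on 1 array alone. For the 117 probes with bright input alone it was 1.80. All 2556 stayed above 0 on both arrays with normexp, the table and before dye normalization. These settings read the same spots that the rule used, so this is a description and not a test. The share found again on the other array was 12.5% with normexp, 35.2% with the table, 42.9% before dye normalization and 23.1% when chosen on replicate 2.

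The median flank level of 0.18 turned to -0.0054 with normexp, where eligible flanks were at -0.06; it was 0.0062 with bright input, 0.11 to 0.25 on 1 array alone, and between 0.11 and 0.22 under the other settings. Flanks called above 0 and below 0 were 6 and 2 within 10 kb (all flanks 0.438% and 1.32%), 943 and 191 within 200 kb (14.1% and 20.2%), 1238 and 293 within 500 kb (18.5% and 34.4%), 47 and 7 without other high probes (0.806% and 0.602%), 209 and 21 with well measured probes only (3.57% and 2.31%), 26 and 114 with normexp (0.481% and 6.75%), and 304 and 20 before dye normalization (4.85% and 2.09%). Around high probes the shares were 1.23% and 0.412% within 10 kb, 36.9% and 7.48% within 200 kb, 48.4% and 11.5% within 500 kb, 1.93% and 0.287% without other high probes, 9.81% and 0.986% with well measured probes, 1.05% and 4.61% with normexp, and 12.3% and 0.808% before dye normalization. Another high probe nearby was found for 2.19% within 10 kb, 46.4% within 200 kb, 42.0% and 4.66% at limits of 1 and 2, 14.3% with normexp (2 of 14 probes) and 5.13% with bright input. In the same order, the shares of eligible probes were 1.32%, 29.2%, 30.6%, 1.68%, 0.0449% and 0.510%, the last among those with bright input. On chromosome 2 the share was 7.31%, 0.352% and 0.0069% at limits of 1, 2 and with normexp, and on chromosome 12 2.25%, 0.110% and 0%; chromosome 2 ranked second and chromosome 12 last at both limits. With median signals minus median background, the ratio to eligible probes was 1.24 for IP and 0.313 for input. Neighbours on the slide of high probes were above those of eligible probes on both arrays in each setting, by 0.0101 and 0.0077 without other high probes. The cause of these shifts was not tested. Alternatives on genes were not run. No paired analysis was possible because both arrays are of one group. With 2 arrays no value has more than 1 degree of freedom of its own.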

Other observations

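Outside chromosomes 1 to 20 the same limits were met as well. On chromosome X 115 of 7058 probes well above background were above 1.5 on both arrays (1.63%, 95% exact binomial interval 1.35 to 1.95), where the median level was 0.06 on replicate 1 and 0.08 on replicate 2. On unplaced or randomly placed sequence it was 71 of 3673 (1.93%, 1.51 to 2.43), with medians of 0.01 and 0.08. The interval of chromosome X overlaps that of chromosomes 1 to 20 (1.47%, 1.42 to 1.53), and that of the unplaced sequence overlaps it in part.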
